A study of Mus musculus with 12 samples.

Results

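The 10 genes described here encode the enzymes that methylate lysine 9 of histone H3 (H3K9), their close partners, and the proteins that read the mark or recruit the enzymes: Ehmt1, Ehmt2, Wiz, Setdb1, Suv39h1, Suv39h2, Cbx1, Cbx3, Cbx5 and Trim28. They were taken by name and not filtered on any measured value, though earlier results of these data were known when they were chosen. Probes were assigned to them through the accessions on the array, and 15 of the 41174 probes map to them. All 15 probes passed the filter on dim probes, and 10 of the 19180 features tested stand for the 10 genes. The samples were cells purified as gonadal somatic cells from single mouse embryos at embryonic day 11.5, 1 array for each of 12 embryos. Control females and control males were heterozygous for a mutant allele of Jmjd1a, now named Kdm3a, and mutant females and mutant males were homozygous for it, with 3 embryos in each of the 4 groups. Every embryo, the controls included, carried an Nr5a1/CD271 transgene, through which the cells were purified from dissociated gonads and mesonephroi with magnetic antibodies. Every control embryo carried 1 mutant Kdm3a allele, so no wild-type embryo enters any comparison. Nr5a1 is a gene of gonadal somatic cells, so the purification selected for cells in which that transgene is active. Markers of other cells, such as erythroid cells, were measured in the samples too, as given below.

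Methylated H3K9 is a mark of silent chromatin. Ehmt1 and Ehmt2 form the complex that places most of the mono- and dimethylation of H3K9 in euchromatin, the same states that Kdm3a removes, while Suv39h1, Suv39h2 and Setdb1 place trimethylation. The heterochromatin protein 1 (HP1) family, encoded by Cbx5, Cbx1 and Cbx3, binds the methylated lysine, and Trim28 is the corepressor through which zinc finger proteins bring Setdb1 and HP1 to DNA. In the mouse fetal gonad Kdm3a is known for its part in the activation of Sry, which sets the bipotential gonad on the male path. The question asked here is whether the genes that oppose Kdm3a were expressed at different levels where it was lost, or between the sexes.

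The 75th percentile of the signal of an array, called its brightness below, lay between 142.9 and 299.5, a 2.10-fold range, and with 3 arrays a group precision is limited by their number. Levels below are log2 values after division by this percentile. The level of Kdm3a itself was 2.89 ± 0.07 (SD, n = 3) in the control females against 0.62 ± 0.17 in the mutant females, and 2.86 ± 0.16 in the control males against 0.91 ± 0.18 in the mutant males. On a second Kdm3a probe all 6 controls were well above background and 0 of 6 mutants were. Against the lowest signal well above background on each mutant array, that probe was at least 6.21-fold lower in mutant females and 4.14-fold lower in mutant males. Whether these probes lie inside the deleted part of the gene was not looked up here. On the probes that stand for these genes, Xist was well above background in 6 of 6 females and 0 of 6 males, and Ddx3y in 6 of 6 males and 0 of 6 females. Another Xist probe was so in 1 mutant male, and another Ddx3y probe in 1 control female and 2 of 6 males. Sry was so in the 3 control males and in 0 of the other 9 embryos. All 6 markers of gonadal somatic cells passed that limit on each of the 12 arrays. Their summed level, on the linear scale, was 38.7 to 59.8 in control females, 48.1 to 68.0 in mutant females, 34.5 to 40.9 in control males and 38.2 to 51.9 in mutant males. The 7 measured erythroid markers had summed levels between 23.4 and 865 over the 12 arrays, the 11 of the mesonephric epithelium between 40.4 and 65.9, the 8 of endothelium between 9.52 and 18.3, the 3 of macrophages and leukocytes between 0.124 and 1.37, the 4 of germ cells between 0.127 and 0.805 and the 8 of proliferation with a value on every array between 112 and 148. Krt18 and Krt8 had the highest mean levels of the mesonephric markers in every group and made up most of that sum. The arrays lay on 3 slides of 4. Mutant male 1 shared slide 1 with the 3 control males, mutant males 2 and 3 shared slide 2 with control females 1 and 2, and the 3 mutant females shared slide 3 with control female 3. The p-values measure the spread between arrays of single embryos within groups, and the labels give no litters. In control females and mutant males, whose arrays lay on more than 1 slide, that spread includes differences between slides. Arrays on 1 slide had a consensus correlation of 0.346 in limma, while the reported fit treats arrays as independent. In these bulk samples fewer cells of a type and less RNA per cell cannot be told apart.

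All 10 genes matched an entry in the RefSeq promoter table of assembly GRCm38.p6. It gives the 300 bases from 250 before to 50 after a listed start of transcription. The most upstream start listed there was taken for each gene. The windows of Cbx1 and Cbx3 (chr6:51470366-51470665) lie inside the gene, whose first base is at 96788680 for Cbx1 and 51470154 for Cbx3. Their motif and CpG counts thus describe a start within the gene. The promoters of Ehmt1 (chr2:24919560-24919859, minus strand) and Ehmt2 (chr17:34898224-34898523, plus strand) are shown because these enzymes place the marks that Kdm3a removes, that of Trim28 (chr7:13023902-13024201, plus strand) because its level followed those of the enzymes from array to array, and that of Cbx1 (chr11:96788885-96789184, plus strand) because it went the other way and its sexes did not overlap. Capitals mark the GC box GGGCGG or, on the opposite strand, its reverse complement CCGCCC.
Ehmt1: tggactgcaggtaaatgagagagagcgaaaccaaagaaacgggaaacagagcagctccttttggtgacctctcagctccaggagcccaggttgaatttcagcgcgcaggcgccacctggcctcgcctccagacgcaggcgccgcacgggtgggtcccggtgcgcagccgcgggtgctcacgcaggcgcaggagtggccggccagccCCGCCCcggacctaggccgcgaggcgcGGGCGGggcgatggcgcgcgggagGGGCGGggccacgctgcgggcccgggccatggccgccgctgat
Ehmt2: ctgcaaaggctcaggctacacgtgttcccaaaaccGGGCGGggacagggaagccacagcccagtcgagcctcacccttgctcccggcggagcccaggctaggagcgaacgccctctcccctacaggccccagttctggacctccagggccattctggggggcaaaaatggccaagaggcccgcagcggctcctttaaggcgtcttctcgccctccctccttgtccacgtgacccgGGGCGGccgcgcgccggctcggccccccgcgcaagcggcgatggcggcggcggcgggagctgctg
Trim28: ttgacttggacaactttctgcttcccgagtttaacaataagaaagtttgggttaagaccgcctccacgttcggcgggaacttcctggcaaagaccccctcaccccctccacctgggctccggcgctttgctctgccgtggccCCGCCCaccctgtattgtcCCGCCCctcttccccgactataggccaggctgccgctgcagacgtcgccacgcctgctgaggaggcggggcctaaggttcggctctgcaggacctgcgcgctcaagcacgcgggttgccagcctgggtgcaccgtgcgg
Cbx1: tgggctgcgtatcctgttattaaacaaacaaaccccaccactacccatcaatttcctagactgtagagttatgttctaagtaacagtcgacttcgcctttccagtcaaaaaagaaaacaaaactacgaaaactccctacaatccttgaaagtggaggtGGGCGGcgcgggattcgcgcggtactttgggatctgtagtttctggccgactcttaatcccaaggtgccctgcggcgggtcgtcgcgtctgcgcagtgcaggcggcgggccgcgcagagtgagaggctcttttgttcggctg
The GC box, the core of the sites bound by Sp1, was in 10 of 10 promoters of these genes and in 35.9% of the 27018 promoters of that length, with 3 matches in Ehmt1, 2 in Ehmt2, 2 in Trim28 and 1 in Cbx1. The number of CpG dinucleotides was 15 to 34 in the 10 promoters, with a median of 25.5, against a median of 7 over all promoters; Cbx1 had 22 and Ehmt1 had 34. The letters TATAAA, searched on both strands as all motifs were, were in 0 of 10 promoters and 14.2% of all, and the CCAAT box in 4 of 10 (Wiz, Setdb1, Suv39h1 and Cbx5) and 38.0% of all. The ETS core CCGGAAG was in the promoter of Setdb1 alone among the 10 and in 9.14% of all. The E2F form TTTGGCGC was in that of Cbx3 alone and in 0.537% of all, and the form TTTCCCGC in 0 of the 10 and 1.11% of all. The cyclic AMP response element TGACGTCA was in that of Suv39h2 alone and in 1.85% of all. These are matches of letters, not measured sites. The GC box itself contains a CpG, and its share among promoters equally rich in CpG was not counted.

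Ehmt1 and Ehmt2 were well above background on all 12 arrays, and the genotypes overlapped in both sexes for each of them. Ehmt1, which encodes GLP, had levels of 3.76, 3.58 and 3.94 in the control females, 3.89, 4.01 and 3.90 in the mutant females, 3.65, 3.62 and 3.68 in the control males and 3.90, 3.65 and 3.92 in the mutant males. Control males lay closest together, mutant male 2 lay among them, and control female 3 lay among the mutant females. The mutant minus control difference was 0.17 ± 0.12 (SE) in females and 0.17 ± 0.12 in males, and averaged over the sexes it was 0.17 ± 0.09, with a 95% interval of -0.014 to 0.36 (limma, adjusted p = 0.23). Ehmt2, which encodes G9a, had levels of 5.69, 5.63 and 6.23 in the control females, 6.01, 6.38 and 5.90 in the mutant females, 5.57, 5.66 and 5.84 in the control males and 6.22, 5.70 and 6.22 in the mutant males. The same arrays stood out as for Ehmt1: control female 3 was the highest control and mutant male 2 the lowest mutant. The averaged difference of Ehmt2 was 0.30 ± 0.15, an interval of -0.021 to 0.62, or 1.23-fold at its centre (adjusted p = 0.227).

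Wiz encodes a zinc finger protein that holds the Ehmt1 and Ehmt2 complex on chromatin. Its levels were 2.26, 2.30 and 3.23 in the control females, 2.98, 3.32 and 2.81 in the mutant females, 1.72, 2.00 and 2.32 in the control males and 2.77, 2.21 and 2.83 in the mutant males. Its range over the 12 arrays was 1.59 on the log2 scale, the widest among the probes that stand for the 10 genes, and control female 3 exceeded every mutant but mutant female 2. The mutant minus control difference was 0.44 ± 0.28 in females and 0.59 ± 0.28 in males, and 0.51 ± 0.20 averaged over the sexes, an interval of 0.077 to 0.95 or 1.43-fold at its centre, and did not pass the threshold (limma, adjusted p = 0.185). Control males were 0.58 ± 0.28 below control females (adjusted p = 0.472), with an interval of -1.20 to 0.039.

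Trim28, the corepressor that recruits Setdb1, had levels of 3.69, 3.74 and 4.44 in the control females, 4.45, 4.85 and 4.35 in the mutant females, 3.62, 3.67 and 3.93 in the control males and 4.33, 3.76 and 4.42 in the mutant males. Control female 3 lay among the mutant females and mutant male 2 among the control males, so the genotypes overlapped in both sexes. The averaged difference of 0.51 ± 0.17, an interval of 0.14 to 0.88 or 1.42-fold, had the smallest p of the 10 genes, 0.012, and an adjusted p of 0.164 in limma. It was 0.59 ± 0.24 in females (adjusted p = 0.466) and 0.43 ± 0.24 in males (adjusted p = 0.442).

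Setdb1, the trimethylase recruited by Trim28, was well above background on 12 of 12 arrays. Its levels were -1.66, -1.68 and -0.93 in the control females, -1.04, -0.64 and -1.15 in the mutant females, -1.44, -1.34 and -1.26 in the control males and -1.48, -1.44 and -1.09 in the mutant males. Control females 1 and 2 were the lowest of the 12 arrays, control female 3 was second only to mutant female 2, and the males of the 2 genotypes overlapped. The mutant minus control difference was 0.48 ± 0.21 in females, with an interval of 0.014 to 0.95 (limma, adjusted p = 0.477), and 0.0073 ± 0.21 in males, with an interval of -0.46 to 0.47. The test of the difference between these effects gave -0.47 ± 0.30 with an adjusted p of 1.

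Suv39h1 and Suv39h2 encode the enzymes of pericentromeric trimethylation. Suv39h1, an X-linked gene, had levels of 1.55, 1.54 and 1.73 in the control females, 1.85, 1.94 and 1.68 in the mutant females, 1.58, 1.54 and 1.69 in the control males and 1.77, 1.67 and 1.84 in the mutant males. The genotypes overlapped through control female 3 and mutant female 3 in females and through control male 3 and mutant male 2 in males. The averaged difference was 0.18 ± 0.08, an interval of 0.0092 to 0.36 (limma, adjusted p = 0.201), and the sexes of the controls differed by -0.0015, with an interval of -0.25 to 0.24. The Suv39h2 probe with the highest mean of 3, which stands for the gene, had levels of -1.07, -0.82 and -1.36 in the control females, -0.88, -1.15 and -1.21 in the mutant females, -1.09, -1.37 and -0.93 in the control males and -0.77, -1.08 and -1.20 in the mutant males. All 4 groups covered nearly the same range, and the averaged difference was 0.060 ± 0.13 (adjusted p = 0.756). The other Suv39h2 probes gave averaged differences of 0.024 and 0.024. One of these was well above background on 7 of 12 arrays, and the probes followed each other weakly over the 12 arrays, with Pearson's r between -0.162 and 0.378.

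**Figure D1:**
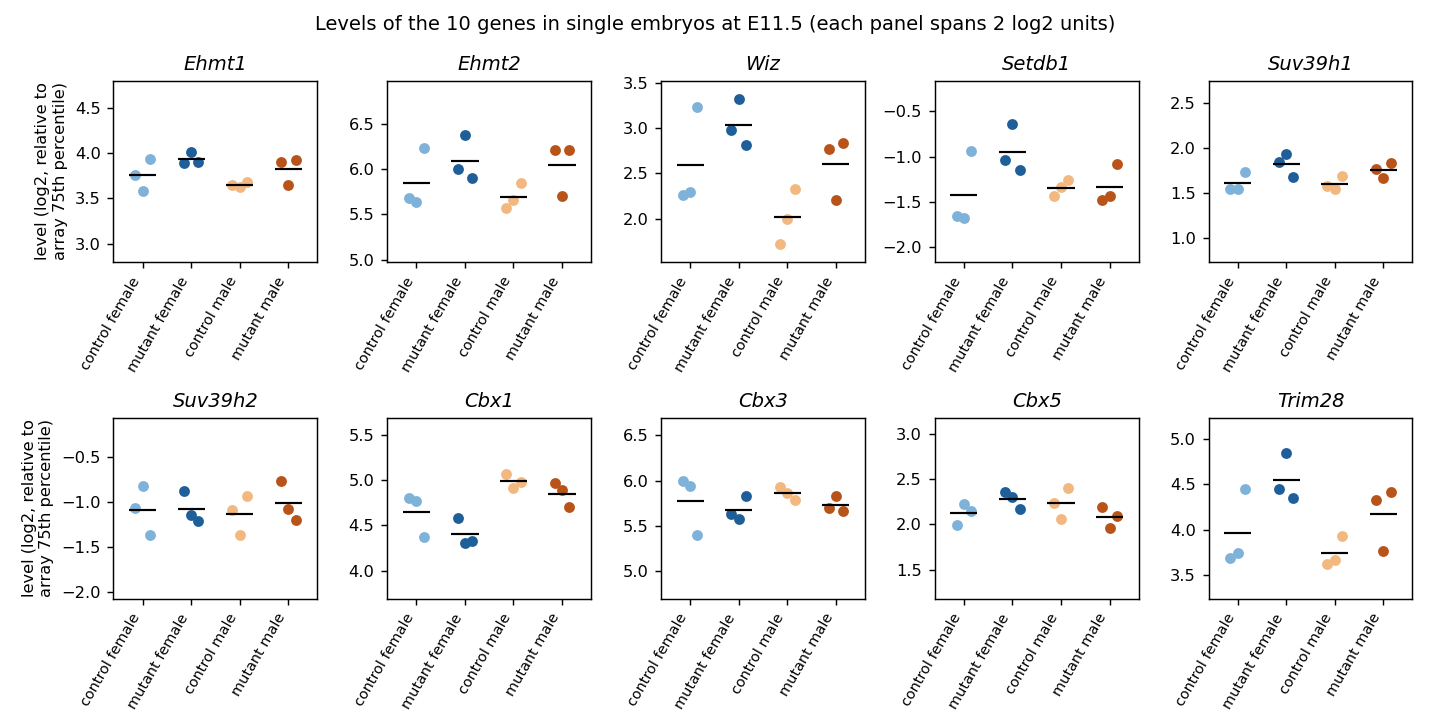
Levels of the 10 genes on the 12 arrays (log2, relative to the 75th percentile of the array), 1 point per embryo and a line at each group mean; every panel spans 2 log2 units. Ehmt2, Wiz, Setdb1 and Trim28 show control female 3 above and Cbx1 and Cbx3 show it below the other control females, and the sexes of Cbx1 do not overlap in either genotype.

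On the probes that stand for the HP1 genes, the sexes of Cbx1 did not overlap, and those of Cbx3 and Cbx5 did. Cbx1, which encodes HP1 beta, had levels of 4.80, 4.77 and 4.37 in the control females, 4.59, 4.31 and 4.32 in the mutant females, 5.07, 4.91 and 4.98 in the control males and 4.97, 4.89 and 4.71 in the mutant males. All 3 control males lay above all 3 control females, and all 3 mutant males above all 3 mutant females, while the genotypes overlapped within each sex. Males exceeded females by 0.34 ± 0.14 in controls, an interval of 0.026 to 0.66 or 1.27-fold (limma, adjusted p = 0.463), and by 0.45 ± 0.14 in mutants, an interval of 0.13 to 0.76 or 1.36-fold (adjusted p = 0.352). Groups with males above females and no overlap were common, at 10.0% of all features in controls and 14.2% in mutants. The mutant minus control difference of Cbx1 was negative in both sexes, -0.24 ± 0.14 in females and -0.13 ± 0.14 in males, and -0.19 ± 0.10 averaged over them (adjusted p = 0.257). No slide held control males with control females, nor mutant males with mutant females. With brightness as a covariate the sex difference of Cbx1 was 0.20 in controls and 0.28 in mutants. With the slide as a fixed block it was 0.032 in controls and -0.028 in mutants, but not from sexes compared within a slide. That fit sets mutant males against control females on slide 2. For controls it then takes off the mutant effect within slide 1, which rests on mutant male 1. For mutants it takes off that within slide 3, which rests on control female 3.

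Cbx3, which encodes HP1 gamma, had levels of 5.99, 5.94 and 5.40 in the control females, 5.63, 5.57 and 5.83 in the mutant females, 5.93, 5.86 and 5.78 in the control males and 5.70, 5.83 and 5.67 in the mutant males. Control female 3 was the lowest of the 12 arrays and control females 1 and 2 were the highest, so that the group spanned the whole range of the gene. The averaged difference was -0.11 ± 0.11 (limma, adjusted p = 0.494), and the sexes differed by 0.082 ± 0.16 in controls and 0.056 ± 0.16 in mutants. A second Cbx3 probe followed the first over the 12 arrays with r = 0.849. On it the 3 mutant males lay above the 3 mutant females without overlap, by 0.39 ± 0.20 (limma, adjusted p = 0.426). Of all 19180 features, 14.2% had mutant males above mutant females without overlap, and the share over single probes was not counted.

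Cbx5 encodes HP1 alpha, and its 3 probes, all well above background on 12 of 12 arrays, did not vary alike. On the probe that stands for the gene the levels were 1.99, 2.23 and 2.14 in the control females, 2.35, 2.30 and 2.17 in the mutant females, 2.24, 2.06 and 2.40 in the control males and 2.20, 1.96 and 2.09 in the mutant males. All 4 groups overlapped, and the averaged difference was 0.0014 ± 0.09 (limma, adjusted p = 0.993). On another probe (A_52_P547538) the levels were 2.08, 2.25 and 1.75 in the control females, 2.09, 1.89 and 1.91 in the mutant females, 2.48, 2.40 and 2.38 in the control males and 2.13, 2.31 and 2.13 in the mutant males. The control males were thus above every other array, and the mutant males above the mutant females. Males exceeded females by 0.39 ± 0.14 in controls on this probe and by 0.38 ± 0.14 on the other (A_52_P544760), with adjusted p of 0.405 and 0.409 over the 25816 probes tested separately. In mutants these 2 probes gave 0.23 ± 0.14 and 0.25 ± 0.14, again without overlap. The mutant minus control difference in males was -0.23 ± 0.14 and -0.29 ± 0.14 on them, without overlap and with adjusted p of 0.466 and 0.432. Over all 25816 probes, 12.1% had the 3 mutant males below the 3 control males without overlap. Males lay above females without overlap in 10.0% of all 19180 features in controls and 14.2% in mutants. For the sexes the share over single probes was not counted. A_52_P547538 and A_52_P544760 followed each other with r = 0.956 over the 12 arrays, and the probe that stands for the gene with r of -0.0096 and -0.086. Which transcripts of Cbx5 each probe reads was not examined here, since the files hold no probe sequences.

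**Figure D2:**
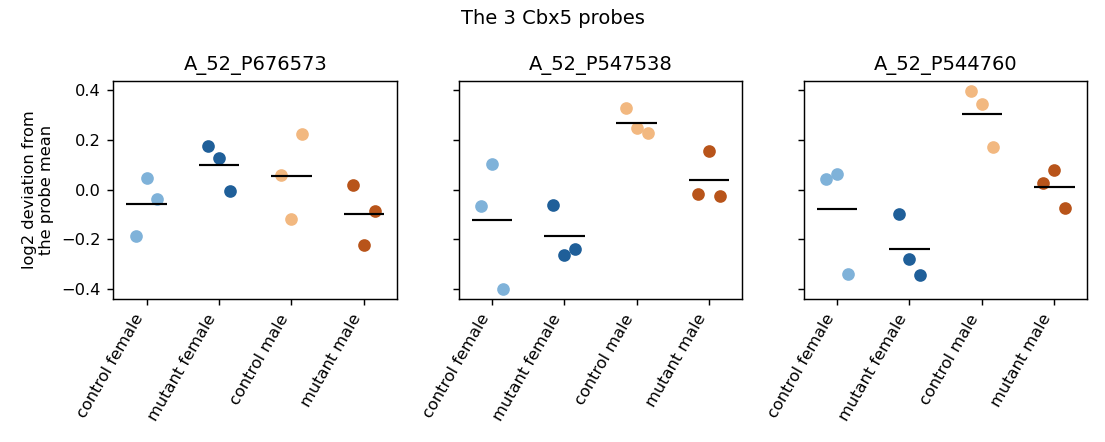
Each Cbx5 probe as the log2 deviation from its own mean over the 12 arrays, 1 point per embryo with a line at the group mean. Control males lie above both female groups on the probes A_52_P547538 and A_52_P544760 and overlap them on A_52_P676573.

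As a list, 0 of the 10 genes passed the adjusted threshold of 0.05 in limma in any of the 6 contrasts. For the mutant effect 0.469% of all features passed it in males, 0.355% in females and 1.12% on average over the sexes. At an unadjusted p under 0.05, 0 of the 10 passed in males, 2 in females (Trim28 and Setdb1) and 3 on average (Trim28, Wiz and Suv39h1), against 11.9%, 10.4% and 23.6% of all features. On the probes that stand for the genes, 8 of the 10 were higher in mutants on average and 2 lower (Cbx1 and Cbx3). The median difference was 0.18, beside a median of -0.052 and 43.4% higher over all features. These counts depend on the probe for Cbx5, which was higher by 0.0014 on the probe that stands for it. Its other 2 probes gave -0.15 and -0.23, the latter with an unadjusted p of 0.036 in limma. The 6 writers and partners, Ehmt1, Ehmt2, Wiz, Setdb1, Suv39h1 and Suv39h2, had positive differences in both sexes, with a median of 0.16 in males and 0.23 in females, down to 0.0073 for Setdb1 in males and 0.0064 for Suv39h2 in females. The HP1 genes and Trim28 had medians of -0.13 in males and 0.029 in females. The median in females also depends on the probe for Cbx5, which gave 0.16 there. Its other 2 probes gave -0.068 and -0.16 in females, and with either of them that median is negative. The comparisons of the 2 sexes share no arrays, but each shares its arrays with the average.

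**Figure D3:**
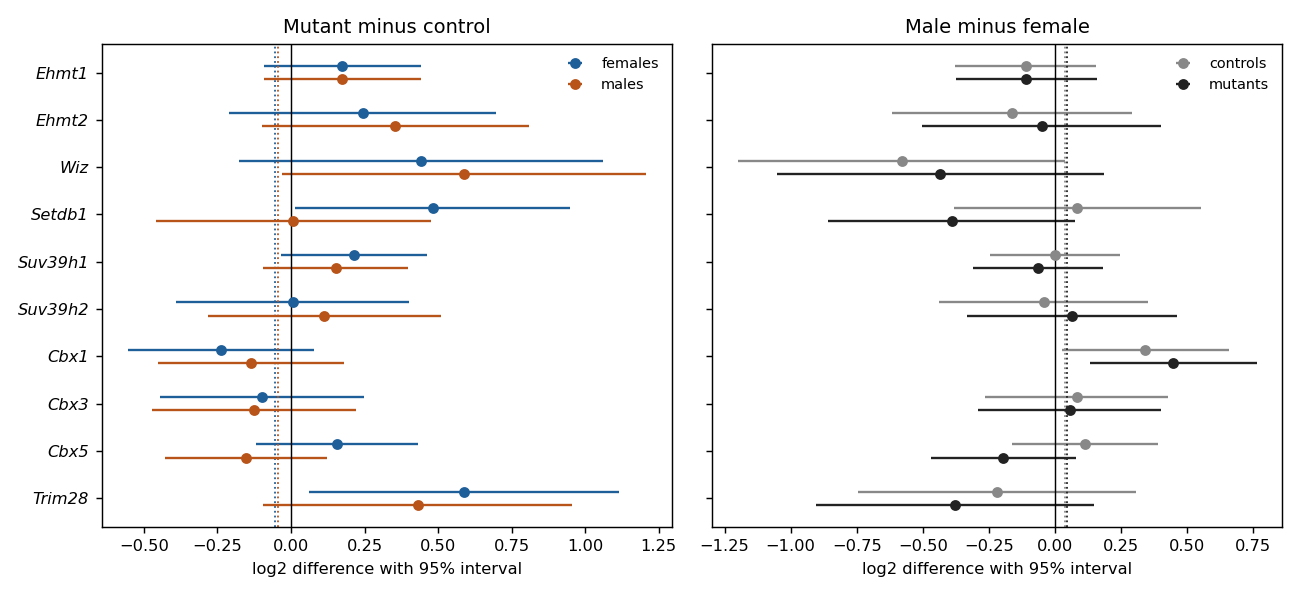
Differences of each gene (log2) with their 95% intervals, mutant minus control in females and males on the left and male minus female in controls and mutants on the right; dotted lines mark the median over all 19180 features. The intervals of Trim28 and Setdb1 in females and those of Cbx1 between the sexes do not reach 0, and no difference passed the adjusted threshold.

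Between the sexes, in controls the median male minus female difference was -0.022 and in mutants -0.086, beside 0.039 and 0.045 over all features. Among the probes that stand for the 10 genes, that of Cbx1 alone had an unadjusted p under 0.05, in both genotypes, where 10.8% and 11.5% of features did. The other 2 Cbx5 probes had unadjusted p of 0.0158 and 0.0161 between the sexes of the controls. None of the 10 passed the adjusted threshold, which 0.177% of features passed in controls and 0.130% in mutants. The difference of the mutant effects between the sexes had an adjusted p of 1 for all 10 genes. Over the whole array limma called 0 features there, with 3.65% at an unadjusted p under 0.05, while it called 8 with the slide as a fixed block and 1 with brightness as a covariate. The widest intervals of that test were those of Wiz, -0.73 to 1.02, and Trim28, -0.90 to 0.58, so differences of that size were not detectable with 3 embryos a group.

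From array to array 6 of the genes moved together. Over the 12 arrays the levels of Ehmt1, Ehmt2, Wiz, Setdb1, Suv39h1 and Trim28, grouped after their values were seen, correlated with Pearson's r between 0.753 and 0.955 in all 15 pairs, and with r between 0.746 and 0.990 as deviations from their group means. Against Cbx1 and Cbx3 the same 6 genes had r between -0.866 and -0.526. On the probes that stand for them, Suv39h2 and Cbx5 had r between -0.429 and 0.435 against all others. The other 2 Cbx5 probes followed that Cbx5 probe with r of only -0.0096 and -0.086, and they were not set against the other genes. These values thus do not speak for Cbx5 as a whole. As deviations from the group means, Suv39h2 had r = 0.813 with Cbx1 and 0.670 with Cbx5, and Cbx5 had 0.586 with Suv39h1. Mutant female 2 was the highest of the 12 arrays for all 6 genes and the lowest for Cbx1, and control female 3 ranked from 2 to 5 of 12 for the 6, 10 for Cbx1 and 12 for Cbx3. The 12 arrays share groups, slides and 1 amplification step each, and these correlations are descriptions.

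**Figure D4:**
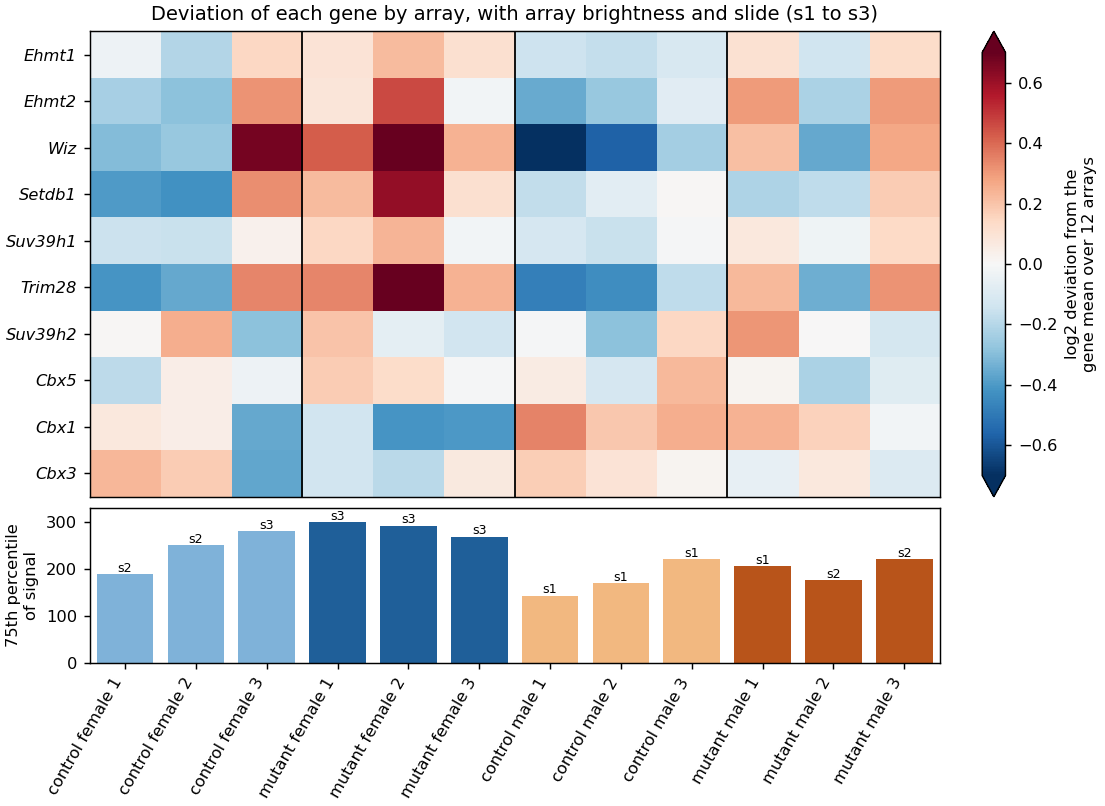
Top, the deviation of each gene from its own mean over the 12 arrays (log2, colour scale ending at 0.7 in either direction), arrays in columns by group. Bottom, the 75th percentile of the signal of each array, with the slide above each bar (s1 to s3); control female 3 and the mutant females, on slide 3, are the 4 brightest arrays.

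The levels of most of these genes varied with the brightness of the array, by which each array had been divided. The brightness thus enters both quantities, and a signal that rises less than it across arrays gives a negative r. The permutation p-values below are adjusted over the 10 genes only. The share of all features with such a relation was not counted, so these values describe no trait of the 10 genes. Across the 12 arrays the correlation with log2 brightness was highest for Wiz, with Pearson's r = 0.873 and Spearman's rho = 0.916 (permutation tests, adjusted p = 0.0024 and 0.0004 over the 10 genes), and r was 0.813 without the 2 arrays farthest from the median brightness, mutant female 1 and control male 1. For Trim28 r was 0.784 and rho 0.888 (adjusted permutation p = 0.0111 and 0.0013), and 0.740 without those 2 arrays. For Cbx1 the relation ran the other way, with r = -0.830 and rho = -0.832 (adjusted permutation p = 0.0031 and 0.0044), and -0.826 without the 2 arrays. Ehmt1, Ehmt2, Setdb1 and Suv39h1 had r of 0.659, 0.645, 0.625 and 0.619 and Cbx3 had -0.644, each with an adjusted permutation p of 0.0394, while Cbx5 had 0.468 (0.14) and Suv39h2 0.066 (0.843). With 4 arrays, no slide holds enough for a correlation of its own. The permutations exchange arrays across groups and slides, which brightness follows, so their p-values take neither into account. As deviations from the group means the correlation with brightness was 0.794 for Wiz, 0.716 for Trim28, 0.671 for Suv39h1, 0.666 for Ehmt2, 0.579 for Setdb1 and 0.404 for Ehmt1. For Cbx5 it was 0.674, for Suv39h2 0.070, for Cbx1 -0.452 and for Cbx3 -0.703. All these values use the probe that stands for each gene. The other 2 Cbx5 probes, which did not vary like that probe, were not set against brightness.

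With the brightness as a covariate the averaged mutant effect was 0.29 ± 0.15 for Trim28, 0.22 ± 0.15 for Wiz, 0.12 ± 0.14 for Ehmt2 and 0.13 ± 0.09 for Ehmt1 (limma, adjusted p 0.621 to 0.805). With the slide as a fixed block these effects were 0.35, 0.28, 0.19 and 0.12. In this layout each is the mean of the 2 within-slide differences given next, so it is not a separate result. It rests on mutant male 1 and control female 3. Within slide 1, where mutant male 1 can be set against 3 control males, the differences were 0.59 for Trim28, 0.76 for Wiz, 0.53 for Ehmt2, 0.25 for Ehmt1 and -0.14 for Setdb1. Within slide 3, where 3 mutant females can be set against control female 3, they were 0.10 for Trim28, -0.20 for Wiz, -0.14 for Ehmt2, -0.0032 for Ehmt1 and -0.0097 for Setdb1. The part of the brightness, of the slide and of single embryos in the differences of the 10 genes was not tested beyond these values. Without control female 3, limma called 3 of the 10 genes for the averaged effect, Trim28 at 0.63 ± 0.14 (adjusted p = 0.027), Wiz at 0.67 ± 0.16 (0.028) and Setdb1 at 0.37 ± 0.11 (0.044), while 25.2% of all features passed, 4827 in place of 214. With array weights, which give arrays far from their group less weight and gave control female 3 a weight of 0.194, limma called 3 of the 10 in males, 7 in females and 8 on average. The same weights called 26.6%, 33.4% and 55.5% of all features.

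**Figure D5:**
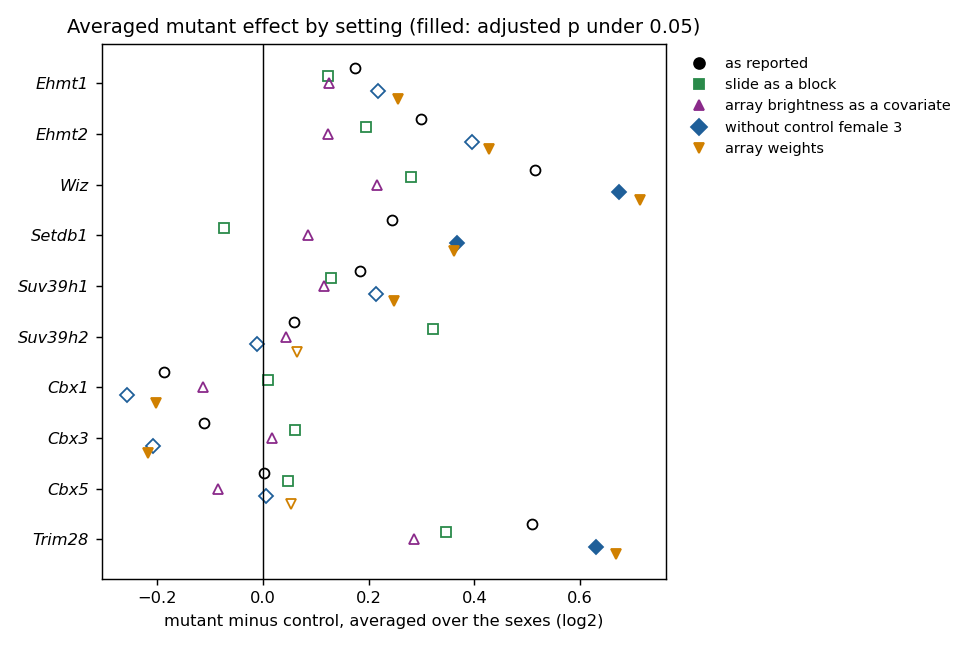
The averaged mutant minus control difference of each gene (log2) as reported and under 4 alternatives; filled symbols have an adjusted p under 0.05. Without control female 3 the points of Wiz, Setdb1 and Trim28 are filled, and with the slide as a block or brightness as a covariate those of the 6 co-varying genes lie nearer 0 than as reported.

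The other genes of the pathway gave no calls apart from Kdm3a. Of 11 H3K9 demethylases, all measured, Kdm3a fell by 2.11 on the log2 scale on average (± 0.10) on the probe that stands for it, and 7 were higher and 4 lower in mutants. Kdm3b, a paralog of Kdm3a, had a difference of 0.57 ± 0.17 (limma, adjusted p = 0.145), with levels of -1.32 ± 0.47 (SD) in control females, -0.72 ± 0.23 in mutant females, -1.68 ± 0.21 in control males and -1.14 ± 0.34 in mutant males. Between control males and control females the 2 smallest p-values in that list were those of Phf2, a demethylase of the PHF8 family, at -0.69 ± 0.32 and Kdm3b at -0.36 ± 0.25. Of 16 other H3K9 writers and partners 14 were measured, 7 higher and 7 lower on average. The 2 smallest p-values were those of Morc2a, which acts with the human silencing hub complex, at 0.36 ± 0.13 (adjusted p = 0.176) and Cdyl, a reader that binds the Ehmt enzymes, at 0.27 ± 0.11 (0.186). The 2 smallest p-values between the sexes in controls were there those of Pphln1, a subunit of that hub complex, at 0.28 ± 0.14 (0.473) and Prdm16 at -0.37 ± 0.27 (0.563). Of 20 heterochromatin and HP1 partners 19 were measured, 12 higher and 7 lower. The 2 smallest p-values were those of Dnmt1, the maintenance DNA methyltransferase, at 0.54 ± 0.17 (adjusted p = 0.155) and Chaf1a, the chromatin assembly subunit that binds HP1, at 0.41 ± 0.13 (0.163). Between the sexes in controls the smallest p-values there were those of Hells, a chromatin remodeller, at 0.34 ± 0.16 and Hdac2, a histone deacetylase, at 0.33 ± 0.15, both with an adjusted p of 0.464.

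The 6 markers of gonadal somatic cells were higher in mutants in both sexes too, 6 of 6 in each, with medians of 0.28 in males and 0.29 in females and none past the threshold. Of the 11 measured markers of the mesonephric epithelium 10 were higher in mutant males, with a median of 0.46, and 3 in mutant females, with a median of -0.11, and of 9 proliferation markers 5 were higher in mutant males and 3 in mutant females, with medians of 0.030 and -0.039. Endothelial markers were higher in mutant males for 7 of 8 (median 0.47) and in mutant females for 1 of 8 (-0.40). Erythroid markers were higher for 6 of 7 in males (0.40) and 5 of 7 in females (0.061), and germ cell markers for 3 of 4 in males (0.12) and 3 of 4 in females (0.80). Those of macrophages and leukocytes were higher for 3 of 3 in males (0.53) and 1 of 3 in females (-0.46). None of the markers of these lists passed the adjusted threshold in limma in either sex. At an unadjusted p under 0.05, 5 of 11 mesonephric markers passed in males and 2 in females. Of 9 proliferation markers 3 and 2 did, and of 4 germ cell markers 1 and 2, against 11.9% and 10.4% of all features. In the other lists 0 did. For the difference of the mutant effects between the sexes 6 of 11 mesonephric markers did, against 3.65% of all features. Mesonephric differences ran from -0.23 to 1.89 in males and -0.60 to 0.41 in females. The part of these cell types in the differences of the 10 genes was not tested. The patterns of Ehmt1 and Ehmt2 over the 12 arrays were shared by many genes. The 3 named genes most like Ehmt1 were Gopc (r = 0.979), Ptpn1 (r = 0.969) and Dpysl2 (r = 0.964), and 579 named features had an r above 0.9 with it. Those most like Ehmt2 were Ino80e (r = 0.992), Ipo4 (r = 0.982) and Igsf8 (r = 0.981), and 968 named features had an r above 0.9. The residual spread within groups was below that of most features for Suv39h1 (0.10 on the log2 scale, with 7.66% of features lower) and Ehmt1 (0.12, 12.7% lower) and above that of most for Wiz (0.38, 81.2% lower) and Trim28 (0.32, 70.2% lower).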

How the data were processed

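RNA of 12 single embryos was amplified linearly, labelled with Cy3 and hybridised to 1-colour Agilent arrays, per the labels' protocols. The scanner software was Agilent Feature Extraction, per the submitters' processing notes, in version 10.5.1.1, and the array was design 014868, made on mm9, per the file headers. The authors deposited the intensity of each spot, per the file headers as a linear processed signal with the background taken off and no scaling across arrays.

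Levels are log2 of this deposited signal less the log2 of its 75th percentile on that array. Spots marked as outliers were left out and spots of a probe averaged. Of 41174 probes 27479 matched a symbol in the RefSeq table of GRCm38.p6, the source of names and promoters. A probe entered if some group had it well above background on its 3 arrays, and a gene was represented by its probe of highest mean, which left 19180 features. Group means over all 12 arrays were fitted in limma 3.58.1 under R 4.3.3, with 6 contrasts and Benjamini-Hochberg adjustment over all features at 0.05. The fit was also run on simulated data with known changes. The simulated noise was independent between arrays, so that run does not test the fit where arrays of a slide are alike. Intervals are 95% intervals of that fit, and permutation tests used 100000 resamples. The members, lists and tests were chosen with earlier results of these data known. Besides the members, the text names Kdm3a, any gene of 3 pathway lists past the threshold and otherwise its 2 genes with the smallest p in the averaged mutant effect and in the sex difference of controls, the 3 named genes most like Ehmt1 and Ehmt2, and Sry, Xist and Ddx3y as a check. Hdac1, Setdb2 and Zfp568, listed too, were not measured here.

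Alternatives were quantile normalization, normexp with an offset of 50 on the deposited raw intensity and local background (outlier backgrounds replaced by the median of the array), 2 other filters, every probe separately, the mean of a gene's probes (added after the data were examined), fits of the compared groups alone, weights per array, a term for the replicate number, the slide or the brightness, and each array left out. Deviations of same-numbered arrays correlated between -0.532 and 0.426, so replicate numbers were not taken as pairs.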

Additional observations from a re-analysis of the deposited data

How the results depend on the processing

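The values counted here belong to 41 results. These are the 3 mutant effects and the control sex difference of each of the 10 genes, and the mutant sex difference of Cbx1. The mutant sex differences of the other genes and the differences of the mutant effects between the sexes were not counted. Over 974 such values of single genes under the alternatives, 890 kept their direction and stayed short of the threshold. Another 63 changed direction, and 21 passed the threshold where the reported value had not. No reported value had passed the threshold, so none could lose it. The alternatives are not independent, and leaving out an array does not change the value of a comparison without that array. For the turned values the cause was not tested. With array weights, whose iterations stopped before the set tolerance, limma called 3 members in males, 7 in females and 8 on average, and 5099, 6400 and 10651 features in place of 90, 68 and 214. Leaving out 1 array gave 0 to 3 members called on average, the 3 being without control female 3, and 126 to 4827 features. Under every other alternative 0 members were called. Without the weights, the features called under the alternatives, arrays left out included, numbered 26 to 103 in males and 13 to 133 in females, and at least 58 on average. They numbered 10 to 42 between control sexes and 7 to 38 between mutant sexes (34 and 25 as reported). With the replicate number as a replicate block the averaged effect of Trim28 was 0.51 (adjusted p = 0.185) and that of Wiz 0.51 (0.202), and 0 members were called. That block gave 62 features in males, 48 in females, 175 on average, 23 between control sexes and 16 between mutant sexes. With brightness as a covariate the averaged effects of Cbx3 (0.018) and Cbx5 (-0.084), the effects in females of Cbx3 (0.055) and Suv39h2 (-0.012) and that of Setdb1 in males (-0.12) turned, as did the control sex differences of Cbx3 (-0.16), Ehmt2 (0.17), Suv39h1 (0.12) and Trim28 (0.20). The median of the 10 genes moved to 0.071 in females, 0.15 between control sexes and 0.093 between mutant sexes. With array weights the control sex differences of Cbx3 (-0.059), Cbx5 (-0.016) and Suv39h1 (0.020) and the effect of Suv39h2 in females (-0.068) turned. With slide as a fixed block the averaged effects of Cbx1 (0.0096), Cbx3 (0.062) and Setdb1 (-0.073) turned, as did Setdb1 in males (-0.14) and, in females, Cbx1 (0.040), Cbx3 (0.28), Ehmt1 (-0.0032), Ehmt2 (-0.14), Setdb1 (-0.0097) and Wiz (-0.20). So did the mutant sex difference of Cbx1 (-0.028) and the control ones of Cbx3 (-0.059), Cbx5 (-0.049) and Suv39h1 (0.041), and the median moved to 0.066 in females and 0.12 between mutant sexes. As a random block, the slide turned Cbx3 in females (0.052). Cbx5 on average was -0.23 on A_52_P544760, -0.13 as the mean of its probes, -0.23 with normexp and -0.0084 with quantile normalization, and in females -0.025 as the mean of its probes and -0.17 with normexp. The control sex difference of Cbx3 was -0.090 with normexp and -0.074 with quantile normalization, and normexp gave Cbx1 in males 0.020 and the control sex difference of Suv39h1 0.00042. With 1 array left out, values that turned ranged from -0.29 to 0.010 for Cbx3 in females, -0.042 to 0.044 for Cbx5 on average and -0.12 to 0.079 for Setdb1 in males. For Suv39h2 they ranged from -0.010 to 0.13 on average, -0.13 to 0.14 in females and -0.0093 to 0.21 in males. Control sex differences ranged from -0.11 to 0.19 for Cbx3, -0.27 to 0.029 for Ehmt2, -0.046 to 0.33 for Setdb1, -0.044 to 0.060 for Suv39h1, -0.18 to 0.088 for Suv39h2 and -0.35 to 0.023 for Trim28. Signal over background limits 1 Suv39h2 probe, well above background on 7 of 12 arrays, while the other 14 probes were so on all 12.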
